A study of Saccharomyces cerevisiae with 7 samples.

Results

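The 37 genes described here encode proteins of the small-subunit processome and of the box C/D and box H/ACA small nucleolar ribonucleoproteins (snoRNPs) of budding yeast. They were taken from the deposited gene tables by their locus tags, and all 37 were found among the 6665 genes listed. Their RNA was followed in 7 libraries of Saccharomyces cerevisiae BY4741. This is an a-type haploid derived from the S288C reference strain, with deletions that make it need added amino acids and uracil. Every culture was wild type, was seeded at an optical density (OD600) of 0.2 from an overnight culture and grew at 30 °C in synthetic complete (SC) medium. Log phase and saturation had a pair of libraries each, from cultures harvested at OD600 0.5 and from cultures harvested once saturated. The other 3 conditions had 1 library each, namely 1 h and 4 h in 100 nM rapamycin and a lawn spread on an SC plate and left for 3 days. For the rapamycin libraries, early log-phase cells were collected on a filter and moved into fresh medium with the drug. No library of cells moved into fresh medium alone was used here, so the drug and the transfer cannot be told apart. The design text speaks of 10 samples, 3 of them with introns depleted, and the others were not analysed here.

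The processome is the large particle that assembles on nascent ribosomal RNA in the nucleolus. Early cuts on the way to the 18S rRNA of the small ribosomal subunit are made in it. The U3 snoRNA sits at its centre, with the UTP-A and UTP-B protein complexes on the leading end of the transcript and the Mpp10 complex beside U3. Box C/D snoRNPs methylate rRNA and box H/ACA snoRNPs convert uridine to pseudouridine, and each class has its own set of core proteins. In yeast the genes for these proteins belong to the ribosome biogenesis regulon, which is transcribed in rapidly growing cells and depends on signalling through the TOR kinase. Rapamycin inhibits that kinase.

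The libraries held 1019287 to 9438379 reads in genes. Reads of the 37 genes made up 1.05% and 0.811% of gene reads in the log-phase libraries, 0.193% and 0.167% in the saturated libraries, 0.0695% at 1 h and 0.387% at 4 h of rapamycin, and 0.268% in the lawn. All 37 passed the filter on low counts in the fit across 5827 genes. The fewest reads of any of them in any library was 7, for UTP6 in saturated replicate 2, with an exact 95% Poisson interval of 2.81 to 14.4 reads that covers counting error only. The mating type a genes MFA1, MFA2, STE2 and BAR1 had reads in all 7 libraries, and the alpha-factor genes MF(ALPHA)1 and MF(ALPHA)2 had 0 to 7, while STE3, the a-factor receptor gene of alpha cells, had 14 to 89. Of the genes deleted in this strain, LEU2 had 0 to 1 reads, MET17 0 to 12 and URA3 0 to 44, the highest at 4 h of rapamycin. HIS3, of which this strain lacks a part, had 126 to 2262. Of 6 genes listed as markers of saturation, 4 (HSP26, SPI1, SNZ1 and CTT1) were higher in both saturated libraries than in both log-phase libraries, and HSP12 and SSA3 were not. Their summed level was 383 and 1852 TPM in log phase, 25854 and 44134 TPM in the saturated libraries, 4395 TPM at 1 h and 17780 TPM at 4 h of rapamycin and 18939 TPM in the lawn, so it was above log phase in those libraries too. The 4 nitrogen catabolite genes GAP1, MEP2, DAL80 and DUR3, known to rise when TOR is inhibited, were all higher in both rapamycin libraries than in both log-phase libraries. They summed to 51.6 and 72.1 TPM in log phase, 372 and 889.6 TPM in the saturated libraries, 2136 TPM at 1 h, 1249 TPM at 4 h and 403 TPM in the lawn. The log-phase libraries differed from each other by more than sampling noise. HSP12, a gene of resting or stressed cells, was at 225 TPM in replicate 1 and 1553 TPM in replicate 2, and 35 of the 37 genes were lower in replicate 2, with a median log2 ratio of -0.36 and none beyond 2-fold. Values with each log-phase library left out are given with the results.

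The deposited TPM (transcript level scaled to a fixed total) divides reads by coding length and by the library's total, so that levels can be compared between genes. In log phase the snoRNP core genes and NSR1, which encodes a nucleolin-like protein, stood above most of the others. GAR1 was the lowest of them, at 237 and 159 TPM, and the highest were NOP1 in replicate 1, at 552 TPM, and NOP10 in replicate 2, at 513 TPM. RRP5, a large factor that acts in the pathways of both ribosomal subunits, overlapped GAR1 at 234 and 177 TPM. The remaining 28 genes lay between 51.7 and 128 TPM in replicate 1 and between 41.96 and 102 TPM in replicate 2, with UTP18 lowest and UTP10 highest in both. Of the 36 pairs of neighbours in the order by log-phase mean, 34 had overlapping replicates, so their order is not resolved beyond the spread. The whole set summed to 5690 and 4504 TPM in log phase, 1168 and 1038 TPM in the saturated libraries, 567 TPM at 1 h and 2273 TPM at 4 h of rapamycin, and 1411 TPM in the lawn. TPM is a share of the RNA sequenced, so fewer cells that express a gene and less of its RNA per cell cannot be told apart.

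**Figure D1:**
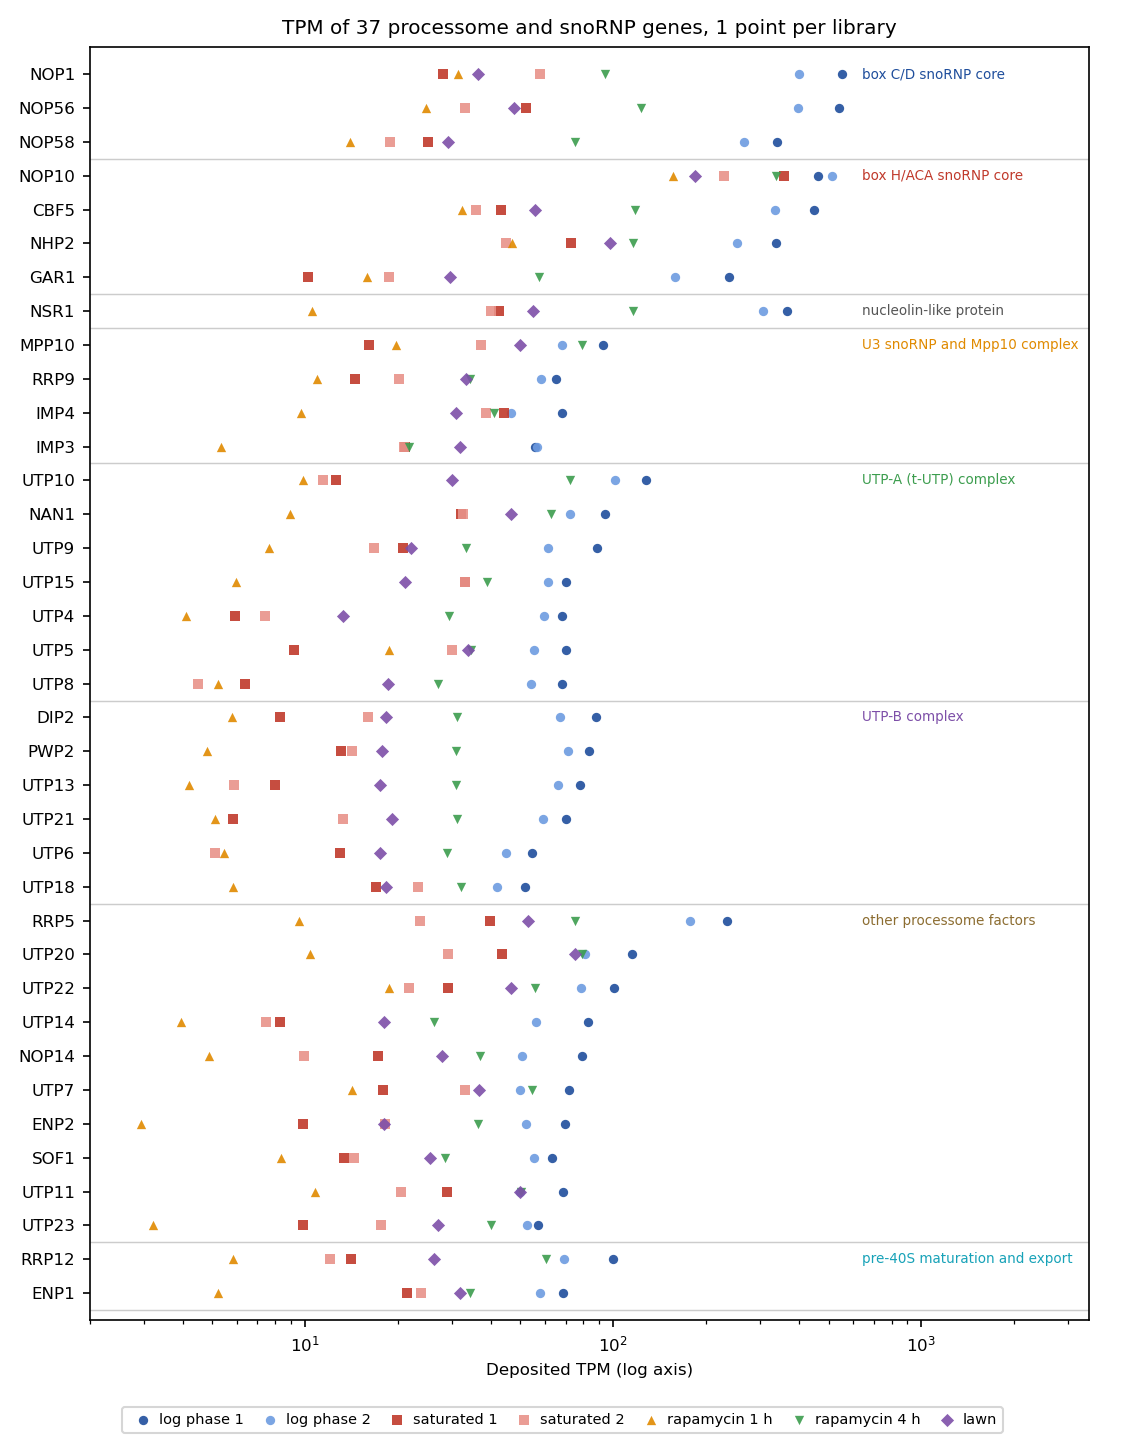
Deposited TPM of each of the 37 genes on a log axis, 1 point per library, with genes grouped by role and sorted within a role by log-phase level. The log-phase points lie to the right of the saturated, 1 h rapamycin and lawn points for all 37 genes, and the 1 h rapamycin triangle is the lowest point for 30 of them.

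The log2 change against log phase was below 0 for all 37 genes in each of the 4 other conditions, under each scaling tried, so none rose. Changes are log2 fold changes on the scale of the edgeR fit, which scales libraries by the trimmed mean of M values (TMM), given with their standard errors. A gene is said to have risen or fallen where the edgeR quasi-likelihood test, with Benjamini-Hochberg adjustment over all 5827 genes, gave an adjusted p under 0.05. In the saturated cultures 33 of 37 fell, against 25.1% of all genes that fell and 27.9% that rose. After 1 h of rapamycin all 37 fell, against 11.5% of all genes that fell and 9.18% that rose, and after 4 h 25 of 37 fell, against 11.5% and 14.8%. In the lawn 33 of 37 fell, against 20.9% and 20.7%. The median log2 change of the 37 was -1.89 in the saturated cultures, -4.10 at 1 h and -1.41 at 4 h of rapamycin, and -2.18 in the lawn. Over all genes the medians were 0.10, 0.04, 0.06 and 0.04 in the same order.

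In TPM the groups separated as follows. Both saturated libraries lay below both log-phase libraries in TPM for 37 of 37 genes, where 46.0% of all genes did so. The 1 h rapamycin library lay below both log-phase libraries for 37 of 37, against 21.3% of all genes. At 4 h the count was 34 of 37, against 24.1%, and the exceptions were MPP10, UTP7 and UTP11. The lawn lay below both for 37 of 37, against 31.4%. As a share of the log-phase mean TPM, the median gene stood at 20.9% in the saturated cultures, 8.53% at 1 h and 54.3% at 4 h of rapamycin, and 32.1% in the lawn. The saturated and lawn medians thus stand in the opposite order on the TPM scale and on the TMM scale. All of these comparisons use the same pair of log-phase libraries.

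Only the log-phase and saturated pairs give a spread between replicates, and the single libraries at 1 h, at 4 h and in the lawn were assumed to vary as those pairs did and have no replicate check of their own. Between the saturated replicates, 5 of the 37 genes differed beyond 2-fold. The counts rested in part on log-phase replicate 1: without it 12 genes in place of 25 fell at 4 h of rapamycin, while 26 fell in the saturated cultures, 37 at 1 h and 24 in the lawn. The medians moved less, to -1.67 in the saturated cultures, -3.90 at 1 h, -1.27 at 4 h and -1.99 in the lawn. Without log-phase replicate 2 the counts were 32, 37, 24 and 34 and the medians -2.20, -4.31, -1.70 and -2.42 in the same order. With plain library totals in place of TMM scaling, the median log2 change of the 37 genes was -2.19 in the saturated cultures, -3.81 at 1 h, -1.08 at 4 h and -1.75 in the lawn, and that of all genes moved to -0.21, 0.32, 0.39 and 0.47. Just inside the threshold in the saturated comparison was UTP7 at -1.02 ± 0.34, and just outside it was UTP11 at -0.87 ± 0.34.

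**Figure D2:**
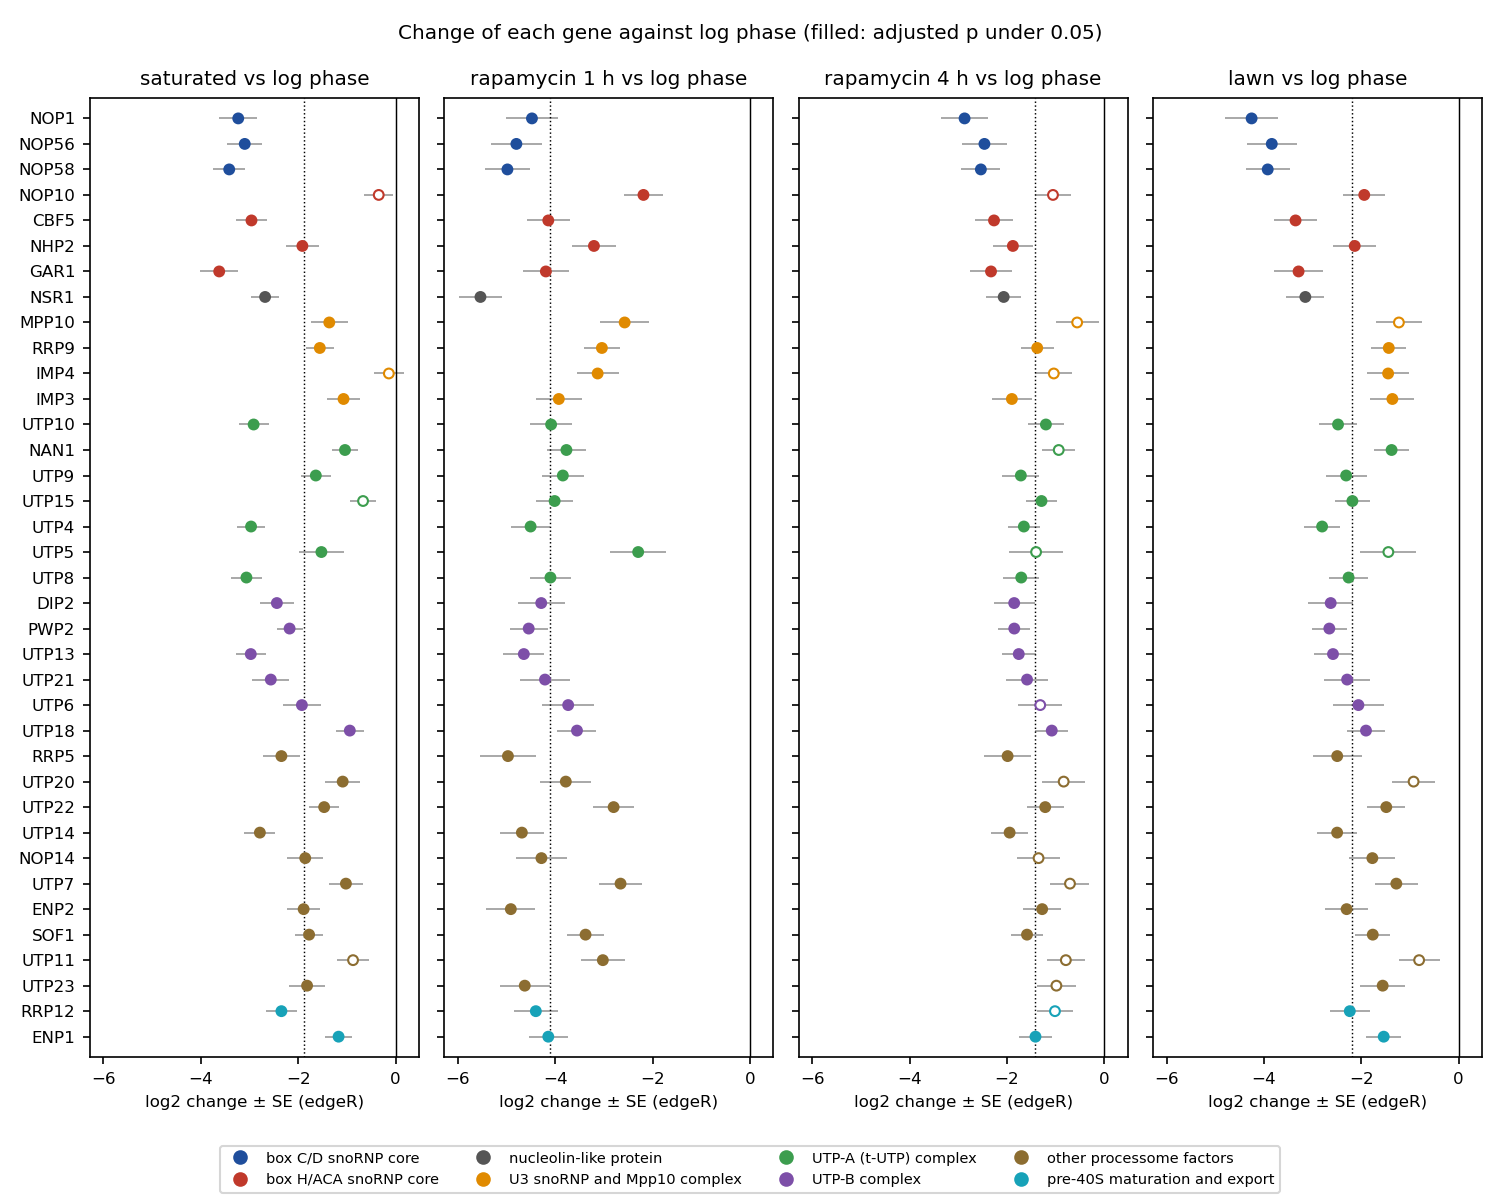
Log2 change of each gene against log phase with its standard error from the edgeR fit, 1 panel per condition, coloured by role. Filled points passed the adjusted threshold, the dotted line marks the median of the 37 genes, and the points at 1 h of rapamycin lie farthest to the left with all 37 filled.

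The 3 box C/D core genes had the 3 most negative log2 changes of the 37 at 4 h of rapamycin and in the lawn, and 3 of the 4 most negative in the saturated cultures. NOP1 encodes fibrillarin, the methyltransferase of the particle, and NOP56 and NOP58 encode the paired scaffold proteins that hold it on the guide RNA. SNU13, which encodes the other core protein, is on the list of further factors described later. NOP1 (YDL014W; chromosome IV, 427364 to 428347) measured 552 and 401 TPM in the log-phase libraries, 27.9 and 57.7 TPM in the saturated libraries, 31.2 TPM at 1 h and 94.2 TPM at 4 h of rapamycin, and 36.4 TPM in the lawn. The saturated replicates differed widely, but neither came near the log-phase pair. Its log2 change was -3.23 ± 0.39 in the saturated cultures and -4.25 ± 0.55 in the lawn, the most negative of the 37 in the lawn. At 4 h of rapamycin it was also the lowest relative to log phase, at -2.87 ± 0.49.

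NOP56 (YLR197W; chromosome XII, 546097 to 547611) had 541 and 399 TPM in the log-phase libraries, 52.1 and 33.01 TPM in the saturated libraries, 24.7 TPM at 1 h and 123 TPM at 4 h of rapamycin, and 47.8 TPM in the lawn. NOP58 (YOR310C; chromosome XV, 896825 to 898360) had 339.8 and 265 TPM in the log-phase libraries, 24.99 and 18.8 TPM in the saturated libraries, 13.96 TPM at 1 h and 75.3 TPM at 4 h of rapamycin, and 29.00 TPM in the lawn. For both genes every other library lay below the log-phase pair, the 1 h rapamycin library was the lowest, and the 4 h library was the highest of the rest. The log2 change of NOP58 was -3.42 ± 0.32 in the saturated cultures, -4.98 ± 0.46 at 1 h, -2.54 ± 0.40 at 4 h and -3.92 ± 0.45 in the lawn. NOP56 changed by -3.10 ± 0.36, -4.80 ± 0.53, -2.46 ± 0.46 and -3.84 ± 0.51 in the same order. The 3 genes as a group had medians of -3.23, -4.80, -2.54 and -3.92, and all 3 fell in all 4 comparisons.

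Among the 4 box H/ACA core genes, CBF5, the pseudouridine synthase (dyskerin in mammals), GAR1 and NHP2 fell in all 4 conditions, while NOP10 fell at 1 h of rapamycin and in the lawn. NOP10 encodes the smallest core protein, and its coding region of 177 bases is the shortest of the 37. GAR1 (YHR089C; chromosome VIII, 282681 to 283298) measured 237 and 159 TPM in the log-phase libraries, 10.2 and 18.7 TPM in the saturated libraries, 15.9 TPM at 1 h and 57.3 TPM at 4 h of rapamycin, and 29.6 TPM in the lawn. Its saturated replicate 1 was the lowest of the 7 libraries, from 32 reads with an exact 95% Poisson interval of 21.9 to 45.2. GAR1 had the most negative saturated change of the 37, at -3.62 ± 0.39, and changed by -4.19 ± 0.48 at 1 h.

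NOP10 (YHR072W-A; chromosome VIII, 241664 to 241840) measured 463 and 513 TPM in the log-phase libraries, 359 and 228 TPM in the saturated libraries, 156 TPM at 1 h and 338 TPM at 4 h of rapamycin, and 184 TPM in the lawn. It was the highest of the 37 genes in log-phase replicate 2 and in each library outside log phase. Its log2 change was -0.34 ± 0.30 in the saturated cultures, with an edgeR adjusted p of 0.363, and -2.19 ± 0.40 at 1 h of rapamycin, the smallest 1 h fall of the 37. Within this complex the ratio of the highest to the lowest TPM, NOP10 over GAR1 in each library, was 1.95 and 3.24 in log phase and 35.02 and 12.2 in the saturated cultures. It was 9.82 at 1 h, 5.90 at 4 h and 6.22 in the lawn. CBF5 changed by -2.96 in the saturated cultures, -4.14 at 1 h, -2.27 at 4 h and -3.35 in the lawn, and NHP2 by -1.91, -3.20, -1.88 and -2.13.

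NSR1, a nucleolin-like protein of the nucleolus needed for pre-rRNA processing, had the largest fall of the 37 at 1 h of rapamycin. NSR1 (YGR159C; chromosome VII, 806412 to 807656) measured 365 and 305 TPM in the log-phase libraries, 42.6 and 40.2 TPM in the saturated libraries, 10.5 TPM at 1 h and 116 TPM at 4 h of rapamycin, and 54.9 TPM in the lawn. The saturated replicates lay close together and far below the log-phase pair, and the 1 h library was lower still, at 3.14% of the log-phase mean. Its log2 change was -5.53 ± 0.44 at 1 h, with an edgeR adjusted p of 3.45e-04, and -2.07 ± 0.35 at 4 h. In the saturated cultures it changed by -2.68 ± 0.29 and in the lawn by -3.15 ± 0.39.

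The U3-specific protein and the Mpp10 complex had smaller median changes than the snoRNP core groups; the difference between groups was not tested. RRP9 encodes the WD-repeat protein found on U3 and on no other snoRNA, and MPP10, IMP3 and IMP4 encode the complex that joins U3 in the processome. The group's median log2 change was -1.21 in the saturated cultures, -3.08 at 1 h, -1.21 at 4 h and -1.40 in the lawn. IMP4 (YNL075W; chromosome XIV, 485607 to 486479) measured 68.3 and 46.4 TPM in the log-phase libraries, 44.2 and 38.6 TPM in the saturated libraries, 9.68 TPM at 1 h and 40.9 TPM at 4 h of rapamycin, and 30.97 TPM in the lawn. In TPM its saturated libraries lay under log-phase replicate 2, but after TMM scaling they did not. Its log2 change of -0.14 ± 0.31 was the smallest of the 37 in the saturated cultures. At 1 h it fell by the test, at -3.13 ± 0.43.

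RRP9 (YPR137W; chromosome XVI, 802359 to 804080) measured 65.4 and 58.1 TPM in the log-phase libraries, 14.5 and 20.1 TPM in the saturated libraries, 10.96 TPM at 1 h and 34.3 TPM at 4 h of rapamycin, and 33.3 TPM in the lawn. It fell in all 4 comparisons, with -1.56 ± 0.28 in the saturated cultures and -3.04 ± 0.37 at 1 h, and its levels at 4 h and in the lawn were nearly equal. MPP10 (YJR002W; chromosome X, 438865 to 440646) measured 92.4 and 67.9 TPM in the log-phase libraries, 16.1 and 37.2 TPM in the saturated libraries, 19.7 TPM at 1 h and 78.97 TPM at 4 h of rapamycin, and 49.98 TPM in the lawn. In TPM its 4 h level lay between the log-phase replicates, but after TMM scaling it lay below both. The saturated replicates of MPP10 were spread more than 2-fold apart. Its log2 changes were -1.36 ± 0.38 in the saturated cultures and -0.56 ± 0.44 at 4 h, the latter short of the threshold. IMP3 (YHR148W; chromosome VIII, 393534 to 394085) measured 55.6 and 56.7 TPM in the log-phase libraries, 21.1 and 20.9 TPM in the saturated libraries, 5.33 TPM at 1 h and 21.7 TPM at 4 h of rapamycin, and 31.7 TPM in the lawn. It was 1 of the 2 genes, with NOP10, that were no lower in log-phase replicate 2 than in replicate 1, and its log2 changes were -1.07 ± 0.34 in the saturated cultures, -3.93 ± 0.48 at 1 h and -1.90 ± 0.41 at 4 h, from as few as 24 reads at 1 h.

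The U3 snoRNA that these proteins bind went the other way in the saturated cultures. SNR17A and SNR17B are its copies, nearly identical in mature sequence, so how reads were shared between them is uncertain. SNR17A stood at 17813 and 22629 TPM in log phase and at 95819 and 67235 TPM in the saturated cultures. It stood at 28246 TPM at 1 h and 39270 TPM at 4 h of rapamycin and at 60871 TPM in the lawn. In the saturated cultures SNR17A rose by 2.35 ± 0.50 on the log2 scale, with an edgeR adjusted p of 0.00407, and SNR17B by 1.42 ± 0.44, with 0.0231. Neither copy passed the threshold against log phase in the other 3 conditions, where the log2 differences of SNR17A were -0.06 ± 0.59, 0.43 ± 0.58 and 1.05 ± 0.57. The ratio of U3 TPM to the summed TPM of the 37 genes was 3.76 and 6.07 in log phase, 91.9 and 70.3 in the saturated cultures, 59.8 at 1 h, 18.9 at 4 h and 45.5 in the lawn. Levels of the other snoRNAs were not analysed here.

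The 7 UTP-A proteins, also called t-UTPs, bind the leading end of the pre-rRNA first. The ratio of the highest to the lowest TPM among their genes was 1.88 in both log-phase libraries and, in the saturated cultures, 5.55 and 7.36. UTP8 (YGR128C; chromosome VII, 747950 to 750091) measured 68.2 and 53.9 TPM in the log-phase libraries, 6.37 and 4.49 TPM in the saturated libraries, 5.204 TPM at 1 h and 27.1 TPM at 4 h of rapamycin, and 18.6 TPM in the lawn. Its saturated libraries lay on either side of its 1 h library, and the lower of them rested on 10 reads with an exact 95% Poisson interval of 4.795 to 18.4. It changed by -3.06 ± 0.33 in the saturated cultures and -4.10 ± 0.43 at 1 h.

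UTP15 (YMR093W; chromosome XIII, 454015 to 455556) measured 70.3 and 61.5 TPM in the log-phase libraries, 32.97 and 33.1 TPM in the saturated libraries, 5.96 TPM at 1 h and 38.99 TPM at 4 h of rapamycin, and 21.1 TPM in the lawn. The saturated replicates were almost equal, a little under the 4 h library, and the change of -0.67 ± 0.26 was the smallest of the complex in the saturated cultures, with an edgeR adjusted p of 0.0554. At 1 h UTP15 changed by -4.01 ± 0.38, and its value is the median of the complex. UTP10 (YJL109C; chromosome X, 212000 to 217309) has the longest coding region of the complex and measured 128 and 102 TPM in the log-phase libraries, 12.6 and 11.4 TPM in the saturated libraries, 9.87 TPM at 1 h and 72.2 TPM at 4 h of rapamycin, and 29.95 TPM in the lawn. It was the highest of the complex in log phase and at 4 h, yet below NAN1, UTP15 and UTP9 in both saturated libraries, with a change of -2.91 ± 0.31. UTP5 (YDR398W; chromosome IV, 1267471 to 1269402) measured 70.4 and 55.5 TPM in the log-phase libraries, 9.22 and 29.9 TPM in the saturated libraries, 18.8 TPM at 1 h and 34.5 TPM at 4 h of rapamycin, and 33.8 TPM in the lawn. Its saturated replicates were the farthest apart of the 37 genes, with a log2 ratio of 1.70, and its 1 h change of -2.29 ± 0.58 was the second smallest of the 37. UTP4 changed by -2.97 in the saturated cultures and -4.50 at 1 h, UTP9 by -1.64 and -3.84, and NAN1 by -1.04 and -3.77.

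The ratio of highest to lowest TPM was smaller among the 6 UTP-B genes than among the 7 UTP-A genes in every library; the difference between complexes was not tested. UTP-B is a preformed complex, largely of WD-repeat proteins, that joins after UTP-A, and DIP2, PWP2, UTP6, UTP13, UTP18 and UTP21 encode it. At 4 h of rapamycin their TPM levels ranged only from 28.97 to 32.1, a ratio of 1.11, and in the lawn from 17.4 to 19.2, a ratio of 1.10. The ratio was 1.70 and 1.69 in log phase, 1.39 at 1 h and 2.91 and 4.55 in the saturated cultures. The lawn levels rested on 29 reads for UTP6, with an exact 95% Poisson interval of 19.4 to 41.6, up to 68 reads for UTP21, with 52.8 to 86.2, so the narrow range there is smaller than the counting error of a gene. At 4 h UTP6 had 234 reads and an interval of 205 to 266, so the narrow range there is also within the counting error of that gene. In the saturated replicate with the widest ratio UTP6 had 7 reads.

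UTP13 (YLR222C; chromosome XII, 579318 to 581771) measured 77.7 and 66.3 TPM in the log-phase libraries, 7.98 and 5.88 TPM in the saturated libraries, 4.19 TPM at 1 h and 30.8 TPM at 4 h of rapamycin, and 17.5 TPM in the lawn. It had the largest fall of the complex in the saturated cultures, -2.97 ± 0.31, and at 1 h, -4.64 ± 0.42. UTP18 (YJL069C; chromosome X, 310922 to 312706), which brings the exosome cofactor Mtr4 to the particle, measured 51.7 and 41.96 TPM in the log-phase libraries, 16.96 and 23.2 TPM in the saturated libraries, 5.83 TPM at 1 h and 32.1 TPM at 4 h of rapamycin, and 18.3 TPM in the lawn. It was the lowest of the complex in log phase and the highest in both saturated libraries and at 4 h, and it had the smallest changes of the complex, -0.94 ± 0.29 in the saturated cultures and -1.08 ± 0.34 at 4 h. All 6 genes fell in the saturated cultures, at 1 h and in the lawn, and 5 of 6 fell at 4 h, where UTP6 at -1.32 ± 0.45 did not pass. The medians of the complex were -2.31, -4.25, -1.67 and -2.44 in the saturated cultures, at 1 h, at 4 h and in the lawn.

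**Figure D3:**
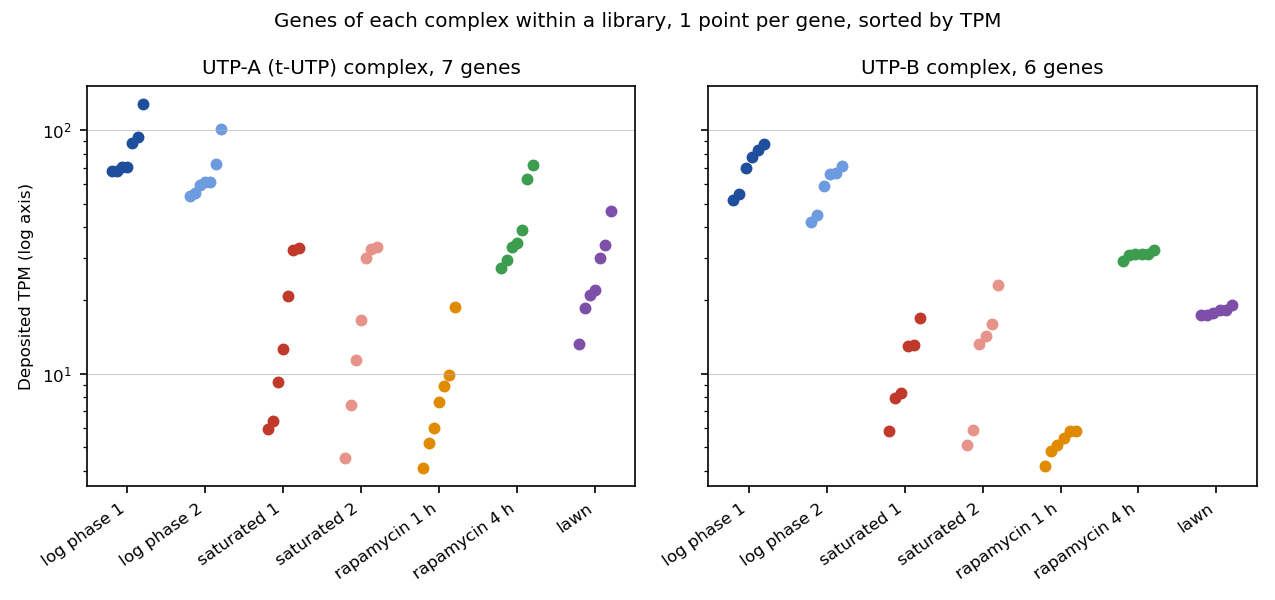
Deposited TPM of the 7 UTP-A genes and the 6 UTP-B genes in each library on a log axis, 1 point per gene, sorted by level within a library. The UTP-B points at 4 h of rapamycin lie between 28.97 and 32.1 TPM, while the UTP-A points in saturated replicate 2 run from 4.49 to 33.1 TPM.

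The other 10 processome factors act at several steps of assembly and release, and 9 of them fell in the saturated cultures, 10 at 1 h, 5 at 4 h and 8 in the lawn. UTP14 (YML093W; chromosome XIII, 83090 to 85789), the protein that activates the helicase Dhr1 to free U3 from the pre-rRNA, measured 82.9 and 56.05 TPM in the log-phase libraries, 8.28 and 7.48 TPM in the saturated libraries, 3.95 TPM at 1 h and 26.1 TPM at 4 h of rapamycin, and 17.97 TPM in the lawn. Its saturated replicates were close together, and it had the largest saturated fall of this group, at -2.79 ± 0.32. UTP11 (YKL099C; chromosome XI, 255720 to 256472) measured 68.7 and 49.7 TPM in the log-phase libraries, 28.9 and 20.4 TPM in the saturated libraries, 10.7 TPM at 1 h and 50.04 TPM at 4 h of rapamycin, and 49.6 TPM in the lawn. In TPM its 4 h level was a little above log-phase replicate 2 and its lawn level a little below. After TMM scaling both lay below the log-phase pair. Its change of -0.87 ± 0.34 in the saturated cultures missed the threshold with an edgeR adjusted p of 0.0537. UTP11 did fall at 1 h, at -3.02 ± 0.45, and its lawn change of -0.81 ± 0.42 was the smallest of the 37.

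UTP7 (YER082C; chromosome V, 324272 to 325936), a WD-repeat protein of the processome, measured 72.1 and 49.9 TPM in the log-phase libraries, 17.9 and 32.9 TPM in the saturated libraries, 14.2 TPM at 1 h and 54.4 TPM at 4 h of rapamycin, and 36.8 TPM in the lawn. At 4 h it lay between the log-phase replicates in TPM, but below both after TMM scaling. Its log2 differences were -1.02 ± 0.34 in the saturated cultures, which passed, and -0.70 ± 0.40 at 4 h, which did not. UTP20 (YBL004W; chromosome II, 227636 to 235117), with the longest coding region of the 37 at 7482 bases, measured 115 and 80.8 TPM in the log-phase libraries, 43.6 and 29.2 TPM in the saturated libraries, 10.4 TPM at 1 h and 79.3 TPM at 4 h of rapamycin, and 75.05 TPM in the lawn. In TPM its 4 h and lawn levels reached nearly that of log-phase replicate 2, but after TMM scaling they lay well below it. The log2 differences of UTP20 at 4 h and in the lawn, -0.83 ± 0.44 and -0.93 ± 0.45, did not pass. At 1 h it changed by -3.78 ± 0.53. UTP7, UTP20, UTP11 and MPP10 were the 4 genes whose TPM at 4 h stood nearest to the log-phase mean, at 81.02% to 98.5% of it.

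ENP2 (YGR145W; chromosome VII, 781767 to 783890) measured 69.5 and 51.9 TPM in the log-phase libraries, 9.87 and 18.1 TPM in the saturated libraries, 2.94 TPM at 1 h and 36.3 TPM at 4 h of rapamycin, and 17.97 TPM in the lawn. Its 1 h level, from 51 reads with an exact 95% Poisson interval of 37.97 to 67.1, was the lowest of the 37 in that library, and it changed by -4.91 ± 0.50. UTP23 (YOR004W; chromosome XV, 333592 to 334356), a PIN-domain protein that acts in release of the snR30 snoRNA, measured 57.2 and 52.3 TPM in the log-phase libraries, 9.83 and 17.6 TPM in the saturated libraries, 3.203 TPM at 1 h and 40.04 TPM at 4 h of rapamycin, and 27.03 TPM in the lawn. It rested on 20 reads at 1 h, the fewest of the 37 there, with an interval of 12.2 to 30.9, and changed by -4.62 ± 0.51. RRP5 changed by -2.34 ± 0.38 in the saturated cultures and -4.97 ± 0.58 at 1 h. In the saturated cultures NOP14 changed by -1.85, SOF1 by -1.77 and UTP22, which joins the casein kinase module, by -1.47, and all 3 also fell at 1 h.

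RRP12 and ENP1 act on the pre-40S particle after it leaves the processome. RRP12 (YPL012W; chromosome XVI, 529723 to 533409), an export factor of the particle, measured 99.6 and 69.1 TPM in the log-phase libraries, 14.1 and 12 TPM in the saturated libraries, 5.85 TPM at 1 h and 60.5 TPM at 4 h of rapamycin, and 26.1 TPM in the lawn. Both saturated libraries and the 1 h library were far below log phase, and the 4 h library came nearer to it. Its log2 differences were -2.34 ± 0.31 in the saturated cultures, -4.40 ± 0.45 at 1 h and -1.01 ± 0.37 at 4 h, the last short of the threshold. ENP1 (YBR247C; chromosome II, 713004 to 714455) measured 68.7 and 57.9 TPM in the log-phase libraries, 21.4 and 23.8 TPM in the saturated libraries, 5.23 TPM at 1 h and 34.4 TPM at 4 h of rapamycin, and 31.8 TPM in the lawn. It changed by -1.17 ± 0.27 in the saturated cultures and -4.14 ± 0.39 at 1 h. In TPM its levels at 4 h and in the lawn lay close together between the saturated and the log-phase pairs. After TMM scaling they lay below both pairs.

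Between 1 h and 4 h of rapamycin most of the genes rose. All 37 were higher in TPM at 4 h than at 1 h, where 56.7% of all genes were, and 30 of 37 rose by the test of the difference between the times, where 5.29% of all genes did. The share of all genes depended on the saturated pair: 365 genes passed in either direction, but 1408 and 1387 without saturated replicate 1 or 2, when 36 and 36 of the 37 passed. The median log2 difference was 2.44, against 0.13 over all genes, and all 37 differences were above 0. In TPM the median gene was 5.36-fold higher at 4 h. The range ran from UTP5 at 1.84-fold to UTP23 at 12.5-fold. UTP23 rose by 3.64 ± 0.52 and ENP2 by 3.64 ± 0.50, the largest of the 37. NSR1 rose by 3.47 ± 0.41 and RRP12 by 3.38 ± 0.45.

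The 7 genes that did not pass between the times included 3 of the 4 box H/ACA genes. GAR1 differed by 1.86 ± 0.47, NHP2 by 1.33 ± 0.45 and NOP10 by 1.13 ± 0.42. The rest were NOP1 at 1.61 ± 0.50, MPP10 at 2.02 ± 0.52, UTP22 at 1.59 ± 0.42 and UTP5 at 0.89 ± 0.60. By role, the median difference was 1.60 for the box H/ACA core, 2.34 for the box C/D core, 2.02 for RRP9 and the Mpp10 complex, 2.55 for UTP-B, 2.72 for UTP-A, 2.84 for the other factors and 3.06 for RRP12 and ENP1. Each time is 1 library, and the test takes its error from the replicated conditions. Longer coding regions tended to go with larger differences between the times across the 37 genes (Pearson r 0.47, Spearman rho 0.46), and somewhat less so without NOP10 (Pearson r 0.37, Spearman rho 0.42). The genes share the same libraries, and these values are descriptions only.

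**Figure D4:**
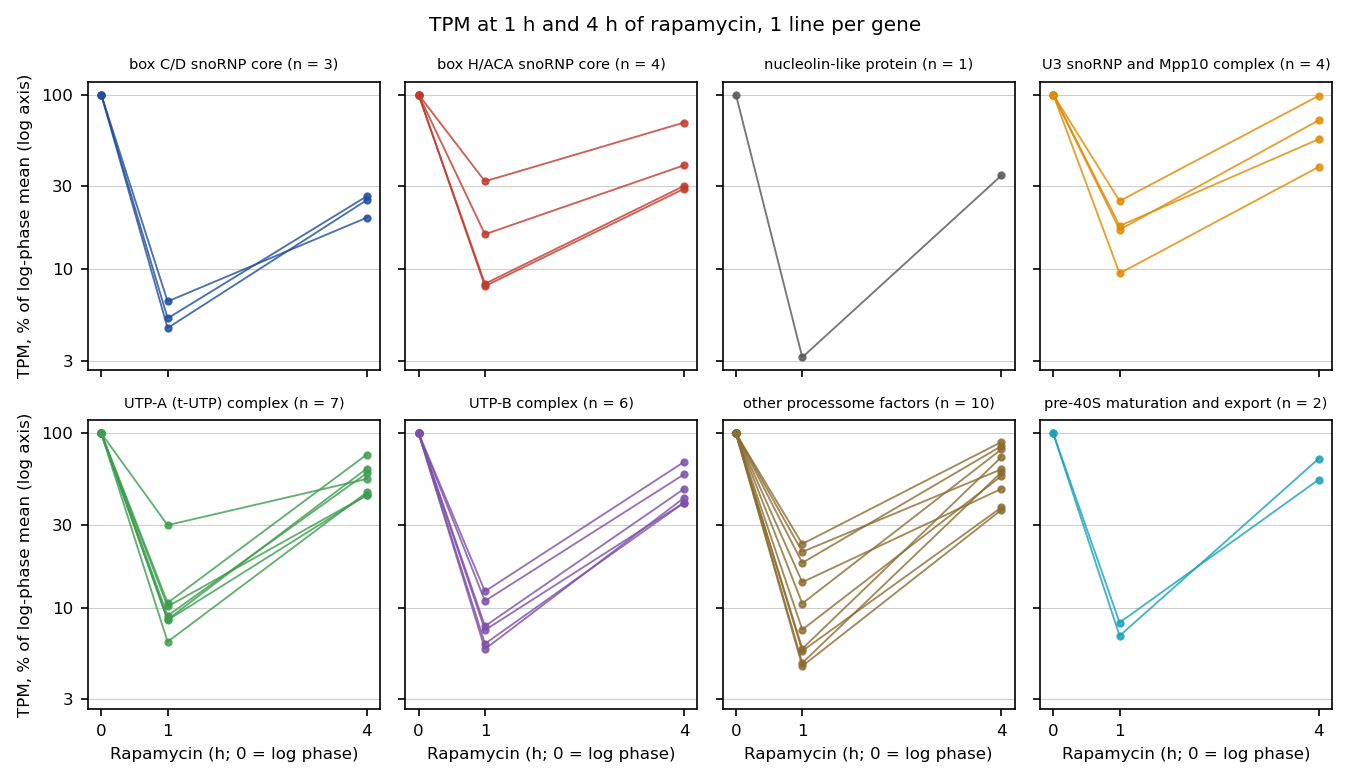
TPM of each gene at 1 h and 4 h of rapamycin as a percentage of its log-phase mean on a log axis, 1 line per gene and 1 panel per role, with log phase drawn at 0 h. Every line falls at 1 h, to 3.14% for NSR1 at the lowest and 31.9% for NOP10 at the highest, and rises by 4 h, to 19.8% for NOP1 at the lowest and 98.5% for MPP10 at the highest.

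Set directly against the saturated cultures, 5 of 37 genes rose in the 4 h rapamycin library by the test, against 7.57% of all genes, with a median log2 difference of 0.36. They were UTP10 at 1.72 ± 0.34, UTP8 at 1.36 ± 0.36, RRP12 at 1.33 ± 0.35, UTP4 at 1.32 ± 0.33 and UTP13 at 1.22 ± 0.34. None fell by the edgeR test or by DESeq2, while 463 of all 5827 genes fell by the edgeR test. At an unadjusted edgeR p under 0.05 in either direction were 10 of 37, against 1896 of the 5827. The lowest difference of the 37 was that of IMP4, at -0.90 ± 0.38. The count of the 37 that passed moved with the processing, from 1 with DESeq2, where UTP10 alone passed, to 17 with plain library totals.

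With the lawn set against the saturated cultures, 2 of 37 genes fell in the lawn, against 7.14% of all genes. They were NOP10 at -1.59 ± 0.43 and UTP15 at -1.52 ± 0.36, both among the 4 genes that did not pass in the saturated cultures, a comparison that shares the saturated libraries. None rose by the edgeR test, while 294 of all 5827 genes did. At an unadjusted edgeR p under 0.05 in either direction were 4 of 37, against 1554 of the 5827. UTP8 had the highest difference of the 37, at 0.80 ± 0.41. The median log2 difference of the 37 was -0.15. With plain library totals that median became 0.59, NOP10 and UTP15 no longer passed and UTP8 and UTP10 rose. Fitted on the lawn and saturated libraries alone, none of the 37 passed the edgeR test. Across the 37 genes, those with higher log-phase TPM tended to have more negative lawn changes (Pearson r -0.67, Spearman rho -0.53). The same was seen for the 4 h changes against log phase (Pearson r -0.60, Spearman rho -0.43) and the saturated changes (Pearson r -0.41, Spearman rho -0.44). It was weaker for the 1 h changes (Pearson r -0.21, Spearman rho -0.26). In each case the log-phase libraries enter both measures.

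Other ribosome assembly genes were measured in the same conditions. The list of 52 other processome and snoRNP factors, such as the RNA helicases, the pre-40S factors and the snoRNP assembly chaperones, had 32 genes that fell and 4 that rose in the saturated cultures and a median change of -1.12 (log2). At 1 h 44 of 52 fell with a median of -2.77, at 4 h 17 fell with -0.89, and in the lawn 33 fell with -1.33. The largest saturated falls were those of PRP43, a helicase shared with splicing, at -3.75 ± 0.30, TSR2, a chaperone of a small-subunit protein, at -2.60 ± 0.39, UTP30 at -2.55 ± 0.43 and KRE33, an RNA cytidine acetyltransferase, at -2.45 ± 0.30. The 4 that rose were RIO1, a kinase of late pre-40S maturation, at 1.49 ± 0.29, NOP19 at 1.34 ± 0.43, NAF1, an assembly factor of box H/ACA particles, at 1.24 ± 0.36, and PIH1, a chaperone subunit for box C/D assembly, at 0.98 ± 0.30. These counts moved with the libraries and the scaling. Without log-phase replicate 1, 20 passed in either direction in the saturated cultures in place of 36, 4 at 4 h and 12 in the lawn, and without log-phase replicate 2 11 passed at 4 h. With plain library totals 7 passed at 4 h and 19 in the lawn, and with either saturated library left out 42 at 4 h and 44 in place of 25 for 4 h against 1 h.

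Of 62 assembly factors of the large subunit, 57 fell in the saturated cultures, 62 at 1 h, 42 at 4 h and 51 in the lawn. Their medians of -1.76, -4.05, -1.41 and -1.87 stand beside -1.89, -4.10, -1.41 and -2.18 for the 37 genes. MAK16 had the largest saturated fall, at -4.16 ± 0.50, followed by RRP1 at -3.38 ± 0.41, SPB1 at -3.23 ± 0.32 and NIP7 at -3.18 ± 0.33. Among 9 subunits of RNA polymerase I, the enzyme that makes the pre-rRNA, 7 fell in the saturated cultures, 9 at 1 h, 7 at 4 h and 8 in the lawn. Their medians were -2.06, -4.31, -1.82 and -2.50, and RPA43 had the largest saturated fall at -4.34 ± 0.38.

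Ribosomal protein genes had more negative medians than the 37 genes in every condition but 1 h of rapamycin. Of 137 such genes 135 fell in the saturated cultures with a median of -2.93, 135 at 1 h with -3.39, 131 at 4 h with -2.14 and 136 in the lawn with -3.01. The single ribosomal protein gene that rose in the saturated cultures was RPL15B at 1.02 ± 0.27, which was looked up after its value was seen and shares near-identical sequence with RPL15A. From 1 h to 4 h of rapamycin 9 of the 137 rose by the adjusted test, where 5.29% of all genes did. Their median was 1.23, with 25th and 75th percentiles of 0.93 and 1.49, against a median of 0.13 over all genes. Most of the differences were thus above 0, though few passed. By the same test 50 of the 62 large-subunit factors rose with a median of 2.52, 25 of the 52 other factors with 1.71 and 5 of the 9 polymerase subunits with 2.44. The difference between lists was not tested.

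**Figure D5:**
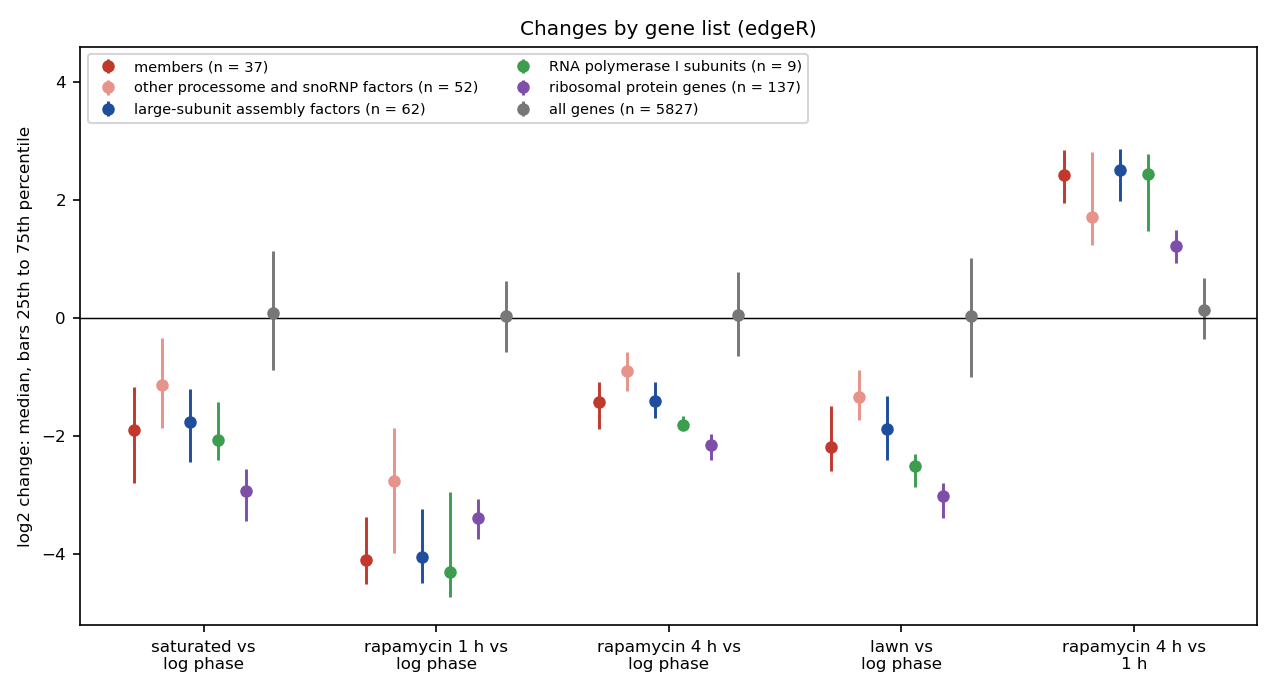
Median log2 change from the edgeR fit for the 37 genes (labelled members), 4 related gene lists and all 5827 genes, with bars from the 25th to the 75th percentile of genes, for 4 comparisons with log phase and for 4 h against 1 h of rapamycin. The 37 genes have medians of -1.89, -4.10, -1.41, -2.18 and 2.44 from left to right, and the all-gene medians run from 0.04 in the lawn to 0.13 for 4 h against 1 h.

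The 37 genes share little in their placement. They lie on 13 chromosomes, with at most 6 on any one, namely chromosomes IV and XII. Among the protein-coding genes of the NCBI RefSeq annotation, no 2 of the 37 are next to each other. None overlaps another gene in that annotation. The 676 deposited gene names without a match there were not checked. None of the 37 has a row in the intron tables. Coding lengths run from 177 bases for NOP10 to 7482 bases for UTP20. Across the 37 genes the correlation of coding length with the saturated change was weak (Pearson r -0.24, Spearman rho -0.16), and weaker without NOP10 (Pearson r -0.10, Spearman rho -0.09). The same held for the 1 h change (Pearson r -0.30, Spearman rho -0.22, and Pearson r -0.14, Spearman rho -0.15 without NOP10). Longer genes tended to have higher differences for 4 h against the saturated cultures (Pearson r 0.45, Spearman rho 0.37, and Pearson r 0.36, Spearman rho 0.32 without NOP10) and for the lawn against them (Pearson r 0.44, Spearman rho 0.40, and Pearson r 0.28, Spearman rho 0.35 without NOP10). These comparisons share libraries, and the values are descriptions.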

How the data were processed

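Per the labels' protocols, total RNA from 7 libraries in 5 groups was depleted of ribosomal RNA, fragmented and sequenced as short single reads. The submitters' processing notes name cutadapt 1.8, STAR 2.4 and the R64 (sacCer3) genome. Not given in the sources used here: counting tool, annotation, strand. The authors deposited read counts and TPM per gene and per intron for each library. The deposited TPM of genes and introns sum to 1000000 per library, and the length they imply matched the R64 coding length within 0.1% for 37 of 37 genes described.

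Symbols and coordinates come from the NCBI RefSeq table of R64, which matched 5989 of 6665 gene names. Sequences and promoters were not used here. Gene counts were fitted once over all 7 libraries with edgeR 4.0.16 in R 4.3.3 (filterByExpr, TMM, quasi-likelihood test, two-sided, Benjamini-Hochberg over 5827 genes, threshold 0.05), with 2 residual degrees of freedom and no block. A standard error is the log2 change divided by the square root of F. The labels do not say whether replicates were separate cultures, so p-values measure the spread between these libraries, which may be technical. The log-phase and the saturated replicates differed beyond sampling noise, with a chi-square per degree of freedom of 15.74 and 34.72. Poisson intervals are at 95% and cover counting error only. The fit was also run on simulated counts with the same fixed spread for all genes and libraries. That run cannot check the spread assumed for the single libraries.

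The 37 genes and all lists were chosen with earlier results of these data known, and no list was given a test of its own. Levels are given in every library for the genes with the most and least negative saturated change in each role, and the 2 most and 2 least negative in each comparison. Outside the 37, up to 4 genes per list are named by the size of the saturated change, along with those that moved against it. Alternatives were DESeq2 1.42.0, other scalings, no filter, fewer libraries, no U3 rows, each replicate left out, and a replicate block.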

Additional observations from a re-analysis of the deposited data

Results flagged for a closer look

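The 37 genes differed between the rapamycin times. By the test of the difference itself (edgeR quasi-likelihood test, Benjamini-Hochberg adjustment), 30 of 37 were higher at 4 h than at 1 h and 0 were lower. Of all 5827 genes, 308 were higher and 57 lower by that test. At an unadjusted edgeR p under 0.05 were 36 of 37, against 1254 of the 5827. In TPM 56.7% of all genes were higher at 4 h, and so were all 37. The number that passed ran from 28 with DESeq2 to 36 without saturated replicate 1, and each time is a single library.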

How the results depend on the processing

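The counts of the 37 genes that passed stayed within 1.5 times under every alternative run for the saturated cultures, 1 h of rapamycin, the lawn against log phase and 4 h against 1 h. Leaving out each replicate in turn gave 26 to 36 for the saturated cultures, 37 each time at 1 h, 12 to 37 at 4 h, 24 to 37 in the lawn, 29 to 36 for 4 h against 1 h, 2 to 15 for 4 h against the saturated cultures and 2 to 5 for the lawn against the saturated cultures. For 4 h against the saturated cultures the count was also 17 with plain library totals, 1 with DESeq2 and 1 with the libraries of both groups alone, and for the lawn against the saturated cultures 0 with those alone, where the edgeR fit as reported had 4 at an unadjusted p under 0.05 and DESeq2 2 past the threshold. The lowest 4 h count came without log-phase replicate 1, and the highest with either saturated library left out; the cause was not tested. The median for the lawn against the saturated cultures changed sign with plain library totals, to 0.59. The number of all genes that passed, the background of the members' counts, moved by over 1.5 times in both directions. Without log-phase replicate 1 it went from 3086 to 1990 in the saturated comparison, from 1208 to 734 at 1 h, from 1532 to 688 at 4 h and from 2422 to 1553 in the lawn. Without saturated replicate 1 or 2 it was 2285 or 2271 at 1 h, 2764 or 2734 at 4 h, 1478 or 2120 in place of 904 for 4 h against the saturated cultures and 1199 or 1636 in place of 710 for the lawn against them, where plain library totals gave 2063 and 1603. With the replicate number as a replicate block, on the log-phase and saturated libraries, 34 of 37 passed in the saturated cultures, UTP11 added and none lost. Deviations of same-numbered libraries from their group means had a Pearson r of 0.21 over 4874 genes, but with 2 pairs only the number is shared. The planned counts of promoter motifs were not run. In the lawn and saturated replicate 2, genes with few reads limit the precision.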

Other observations

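The genes next to the 37 in the genome were not compared as a set above, though some are on the lists counted there. Their 74 distinct protein-coding neighbours in the RefSeq annotation, of which 72 were tested, include none of the 37, and they lie 152 to 4983 bases away. In the saturated cultures 21 neighbours fell and 19 rose, with a median log2 change of -0.09. Of those tested, 29.2% fell and 26.4% rose, against 25.1% and 27.9% of all genes. At 1 h of rapamycin 15.3% fell and 6.94% rose, against 11.5% and 9.18% of all genes. At 4 h 8.33% fell and 19.4% rose, against 11.5% and 14.8% of all genes, and in the lawn 18.1% fell and 18.1% rose, against 20.9% and 20.7% of all genes. THI4, a thiamine synthesis gene 387 bases from ENP2, rose by 9.38 ± 0.56 in the saturated cultures (log2), where ENP2 changed by -1.89 ± 0.34. RTS3, on one side of NSR1, rose by 4.30 ± 0.32, and MTR3, an exosome subunit gene on its other side, fell at -1.70 ± 0.33. Other neighbours are on the lists of large-subunit assembly factors or ribosomal protein genes and already counted above, and all of these fell. They were RIX1 beside UTP9 at -3.10 ± 0.35, RPF1 beside GAR1 at -1.31 ± 0.34, RSA3 beside UTP13 at -0.89 ± 0.32, RPS18A beside UTP6 at -2.68 ± 0.35 and RPS10B beside RRP5 at -2.23 ± 0.41. HTA2, a histone gene 276 bases from UTP20, had the most negative saturated change of the neighbours, at -3.63 ± 0.29. These genes were chosen after their values were seen.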
